A study of Mus musculus with 6 samples.

Results

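The 10 genes described here belong to the striated muscle sarcomere and its calcium pump, and were followed library by library in RNA-seq counts from the newborn mouse inner ear. They are Acta1, Actn2, Myl1, Tnni1, Tnni2, Tnnt1, Neb, Ttn, Atp2a1 and Mybpc1, which is 10 of the 39179 genes listed in the count tables, and all 10 matched 1 Ensembl gene each. The genes were chosen from measured values of these same libraries, in part because their counts are high in cochlea replicate 3, so that library is set apart throughout and its height above the other cochlear libraries is a description with no test. The 10 split into a larger set that peaked in cochlea replicate 3 (7 genes), a slow-fibre troponin pair that was only slightly higher there (Tnni1 and Tnnt1), and Mybpc1, which was highest in the vestibule.

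The sarcomere is the contractile unit of striated muscle, built from thin filaments of actin, troponin and tropomyosin that slide along thick filaments of myosin. Each muscle fibre type uses its own forms of these proteins, and fast and slow fibres differ in the troponins, myosin light chains and calcium pumps they make. The sensory epithelia of the inner ear hold hair cells and supporting cells, which use non-muscle actins and myosins, while skeletal muscle lies close to the otic capsule from which they are dissected.

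The libraries were made from the cochlear and the vestibular sensory epithelium of C57Bl/6J mice at P0, the day of birth, with tissue of 20 cochleae and of 20 vestibules pooled from males and females. There were 3 libraries of each tissue, all titled WT (wild type), and the labels give no treatment for either. Whether the 3 libraries of a tissue came from separate pools of RNA is not stated, so the p-values measure the spread between these libraries, which may be technical. A dissected epithelium is a mixture, so fewer cells of a type and less RNA per cell cannot be told apart in any value given here.

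The gene counts per library ranged from 24464483 to 33664793, so a level of 1 CPM (a count scaled to 1000000 gene counts) stood for 24.5 to 33.7 counts, and a count of 0 allowed a level of up to 0.0891 to 0.123 CPM. All 10 hair cell genes of the marker list were at 1 CPM or more in all 6 libraries, as sensory epithelium should hold them, but both organs have hair cells, so these markers do not check which organ a library came from. Cochlea replicate 3 also stood apart in genes that are not of muscle. The summed level of 5 neuron genes, Nefm and Tubb3 among them, was 151 CPM there against 493 and 434 CPM in cochlea replicates 1 and 2. The part of these differences in the muscle gene values was not tested.

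The promoters of 5 of the genes are given here. Acta1, Actn2, Myl1 and Atp2a1 are those with a promoter in the table whose pooled level in cochlea replicate 3 was over 30 times that of cochlea replicates 1 and 2, and Mybpc1 is the gene that was higher in the vestibule. Each run is the 250 bases before the RefSeq transcription start in GRCm38.p6, written 5′ to 3′ on the gene's own strand, and capitals mark the motifs found by search.
Acta1 (chr8:123894776-123895025, - strand): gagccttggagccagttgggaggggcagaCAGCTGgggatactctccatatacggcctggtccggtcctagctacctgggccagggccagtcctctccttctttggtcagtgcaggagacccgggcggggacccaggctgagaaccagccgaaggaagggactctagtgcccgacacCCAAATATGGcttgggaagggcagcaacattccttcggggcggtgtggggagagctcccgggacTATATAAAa
Actn2 (chr13:12340733-12340982, - strand): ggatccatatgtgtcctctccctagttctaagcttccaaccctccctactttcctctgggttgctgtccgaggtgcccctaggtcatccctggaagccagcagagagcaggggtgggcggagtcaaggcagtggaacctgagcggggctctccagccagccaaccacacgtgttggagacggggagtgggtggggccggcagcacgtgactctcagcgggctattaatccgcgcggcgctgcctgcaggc
Myl1 (chr1:66945057-66945306, - strand): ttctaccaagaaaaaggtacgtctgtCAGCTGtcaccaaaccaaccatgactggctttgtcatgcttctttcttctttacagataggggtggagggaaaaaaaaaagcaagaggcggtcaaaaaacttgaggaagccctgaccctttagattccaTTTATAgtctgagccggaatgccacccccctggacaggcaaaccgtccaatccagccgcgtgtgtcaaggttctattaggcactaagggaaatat
Atp2a1 (chr7:126463074-126463323, - strand): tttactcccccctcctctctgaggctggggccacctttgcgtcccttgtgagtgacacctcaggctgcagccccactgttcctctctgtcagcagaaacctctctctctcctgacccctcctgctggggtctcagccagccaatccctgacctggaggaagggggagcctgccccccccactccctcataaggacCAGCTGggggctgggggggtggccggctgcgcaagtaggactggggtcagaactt
Mybpc1 (chr10:88605153-88605402, - strand): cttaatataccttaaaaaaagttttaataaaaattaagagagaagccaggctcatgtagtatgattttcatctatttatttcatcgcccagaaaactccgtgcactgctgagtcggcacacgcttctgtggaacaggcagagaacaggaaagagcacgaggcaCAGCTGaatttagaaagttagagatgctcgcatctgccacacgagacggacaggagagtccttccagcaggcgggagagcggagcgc
The motifs searched, on both strands, were the E-box CAGCTG bound by myogenic factors, the TATA box as TATAAA or TATATA, the CArG box bound by serum response factor and the MEF2 site. The E-box stood in the promoters of 5 genes, Acta1 221, Myl1 224, Atp2a1 55, Mybpc1 87 and Tnni1 68 bases before the start (158 from its other listed start), and 13.0% of all 32851 promoters in the table held it. Of the 8 genes with a promoter in the table Acta1 alone had a CArG box, 73 bases before its start, a match found in 1.47% of promoters. TATAAA was in the promoters of Acta1, Myl1 and Tnnt1 and in 12.4% of all promoters, and TATATA, which overlaps it in Acta1, in 5.25%. A MEF2 site was found only in the Ttn promoter among the 8, 166 bases before the start, and in 2.92% of all promoters. The Actn2 promoter held none of these motifs and is printed in lower case throughout. The matches describe letters in a window and show no binding.

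Acta1 encodes the skeletal muscle alpha-actin of the thin filament and lies on chromosome 8 at 123891769 to 123894751 of GRCm38. Its counts were 45, 133 and 4305 in cochlea replicates 1 to 3, against 90, 287 and 89 in vestibule replicates 1 to 3, which is 1.84, 4.62, 147 CPM and 2.67, 11.2, 3.49 CPM. Cochlea replicate 3 thus held most of the signal, 86.1% of the gene's CPM summed over the 6 libraries. The pooled level of cochlea replicate 3 was 44.1 times that of cochlea replicates 1 and 2 (95% exact interval 37.9 to 51.5, counting error only). Without that library the cochlear and vestibular values overlapped, and vestibule replicate 2 was the highest of the 5.

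Myl1, the fast-fibre essential light chain of myosin (chromosome 1, 66924295 to 66945404), followed the same order. Its counts were 18, 44 and 1180 in the cochlear libraries against 25, 81 and 28 in the vestibular ones, or 0.736, 1.53, 40.4 CPM and 0.743, 3.15, 1.1 CPM. Again vestibule replicate 2 was the second highest library, and the ratio of cochlea replicate 3 to the other cochlear libraries was 34.7 (26.9 to 45.5). Tnni2, the inhibitory subunit of fast-fibre troponin (chromosome 7, 142441808 to 142444410), had 11, 15 and 570 counts in the cochlear libraries against 21, 49 and 17 in the vestibule. These were 0.450, 0.521 and 19.5 CPM against 0.624, 1.91 and 0.667 CPM, with a ratio of 40.0 (27.0 to 61.7). Acta1, Myl1 and Tnni2 therefore shared both their first and their second library, with 82.4% or more of their summed CPM in cochlea replicate 3.

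Atp2a1, the calcium pump SERCA1 that refills the sarcoplasmic reticulum of fast fibres (chromosome 7, 126445858 to 126463108), had 3, 10 and 248 counts in the cochlear libraries against 44, 28 and 17 in the vestibule. In CPM the values were 0.123, 0.347 and 8.49 against 1.31, 1.09 and 0.667. Cochlea replicate 3 was 34.8 times the other cochlear libraries (20.0 to 66.2), and all 3 vestibular values lay between it and them. Exons of Rabep2 overlap Atp2a1 on the opposite strand. The libraries were made with a stranded mRNA kit, but the sources used here do not say whether counting used strand. Actn2, the alpha-actinin that anchors thin filaments at the Z-disc (chromosome 13, 12269426 to 12340760), had few counts outside cochlea replicate 3. It had 2, 6 and 167 counts in the cochlear libraries against 21, 10 and 0 in the vestibular ones, or 0.0818, 0.208 and 5.71 CPM against 0.624, 0.389 and 0 CPM, where the count of 0 allows up to 0.118 CPM. The ratio within the cochlea was 38.0 with a wide interval of 18.9 to 89.6, since only 8 counts stood in cochlea replicates 1 and 2.

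**Figure D1:**
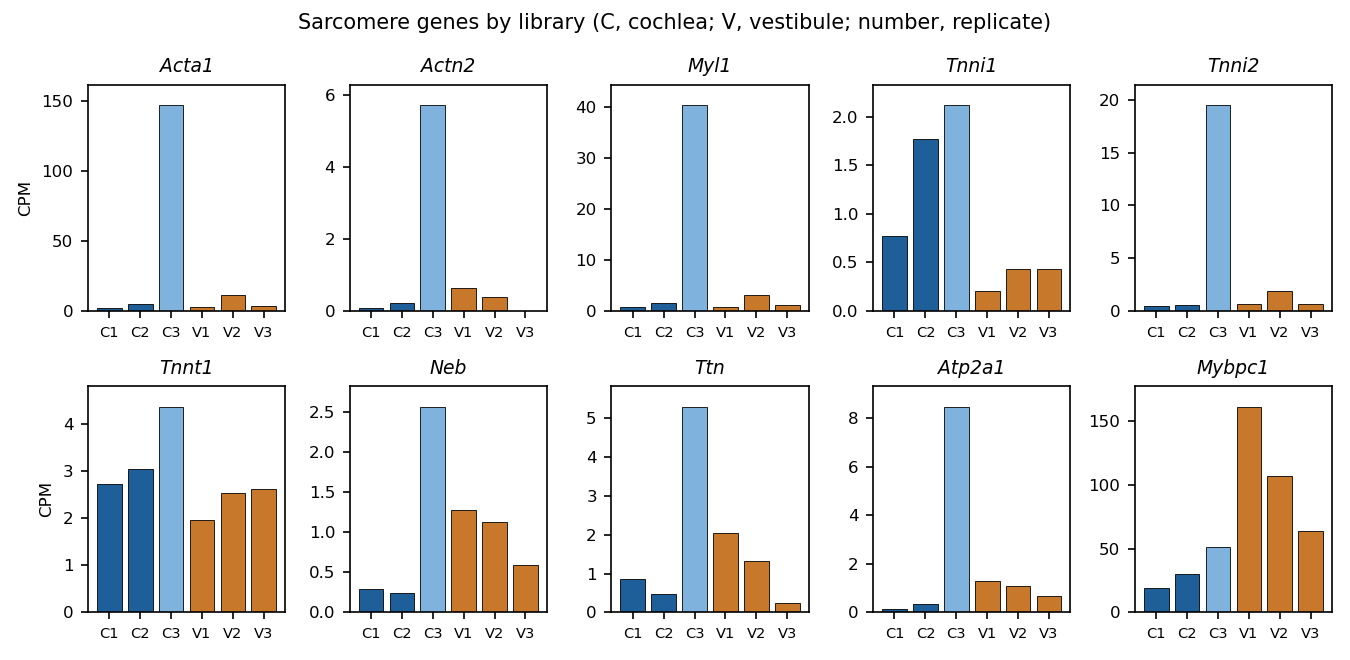
Level of each of the 10 genes in CPM (bars, vertical axis, with its own scale and starting at 0 in each panel) in the 6 libraries, C1 to C3 for cochlea replicates 1 to 3 and V1 to V3 for vestibule replicates 1 to 3. The light bar of cochlea replicate 3 is the highest in 9 genes, by a wide margin in Acta1, Actn2, Myl1, Tnni2 and Atp2a1, and vestibule replicate 1 is the highest in Mybpc1.

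Ttn and Neb encode the giant proteins titin, the molecular spring of the thick filament, and nebulin, the ruler of the thin filament. Ttn (chromosome 2, 76703980 to 76982547) had 21, 14 and 155 counts in the cochlear libraries against 69, 34 and 6 in the vestibular ones, or 0.858, 0.486 and 5.30 CPM against 2.05, 1.32 and 0.236 CPM. Neb (chromosome 2, 52136647 to 52378474) had 7, 7 and 75 counts in the cochlear libraries against 43, 29 and 15 in the vestibular ones, or 0.286, 0.243 and 2.57 CPM against 1.28, 1.13 and 0.589 CPM. Both were highest in cochlea replicate 3, with ratios of 8.07 (5.56 to 12.01) for Ttn and 9.76 (5.47 to 18.7) for Neb, and in both vestibule replicate 1 was the highest vestibular library and replicate 3 the lowest. Acta1 differed, with vestibule replicate 2 at the top.

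The same libraries that ranked high for Ttn and Neb ranked high for long genes in general. Among the 737 longest genes in the authors' length-scaled matrix, of 10.2 kb or more, the median log2 deviation from the tissue mean was -0.17, -0.08 and 0.27 in cochlea replicates 1 to 3 and 0.29, 0.03 and -0.31 in vestibule replicates 1 to 3. For Ttn the same deviations were -0.60, -1.40 and 2.0 in the cochlear libraries against 1.21, 0.59 and -1.80 in the vestibule. For Neb they were -0.95, -1.18 and 2.13 in the cochlear libraries against 0.42, 0.25 and -0.67 in the vestibule. Both genes were chosen in part for their height in cochlea replicate 3, so nothing is read from the size of their deviations there. The part of transcript length in the Ttn and Neb values was not tested. Each is overlapped on the opposite strand by a predicted gene, Gm13938 in Ttn and Gm13522 in Neb.

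The slow-fibre troponin genes among the 10, Tnni1 and Tnnt1, gave another picture, which other slow-fibre genes did not all share. Tnnc1, the slow troponin C, had 10, 14 and 47 counts in the cochlear libraries against 18, 20 and 13 in the vestibule. Myl2, the slow regulatory light chain, had 7, 13 and 80 counts against 11, 8 and 8. Tnni1, the slow inhibitory subunit (chromosome 1, 135779434 to 135810989), had 19, 51 and 62 counts in the cochlear libraries against 7, 11 and 11 in the vestibular ones, or 0.777, 1.77 and 2.12 CPM against 0.208, 0.428 and 0.432 CPM. All 3 cochlear libraries lay above all 3 vestibular ones, and cochlea replicate 3 was only 1.61 times the other cochlear libraries (1.13 to 2.31). Tnnt1, the slow tropomyosin-binding subunit (chromosome 7, 4504570 to 4516382), had 67, 88 and 128 counts in the cochlear libraries against 66, 65 and 67 in the vestibule. In CPM these were 2.74, 3.06 and 4.38 against 1.96, 2.53 and 2.63, so the tissues did not overlap but lay close, with a ratio of 1.51 (1.18 to 1.91) within the cochlea. As shares of each pair, Tnni1 made 63.3% and 77.3% of the Tnni1 and Tnni2 counts in cochlea replicates 1 and 2 (exact intervals 43.9 to 80.1 and 65.3 to 86.7) and 9.81% in replicate 3 (7.60 to 12.4), where the fast form Tnni2, chosen in part for its height in that library, made up the rest. In the vestibule Tnni1 made 25.0%, 18.3% and 39.3% of the pair. For the tropomyosin-binding subunit, Tnnt1 made 76.1%, 82.2% and 15.8% of the counts of Tnnt1 and its fast form Tnnt3 in cochlea replicates 1 to 3, and 70.2%, 43.9% and 68.4% in the vestibule.

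Mybpc1, the slow form of myosin-binding protein C, which ties myosin into the thick filament, had the most counts of the 10 in 5 libraries. Its gene lies on chromosome 10 at 88518279 to 88605152. It had 476, 876 and 1505 counts in the cochlear libraries against 5425, 2739 and 1617 in the vestibular ones, or 19.5, 30.4 and 51.5 CPM against 161, 107 and 63.5 CPM. Every vestibular library lay above every cochlear one, with means of 110 ± 48.9 CPM in the vestibule and 33.8 ± 16.3 CPM in the cochlea (SD, n = 3 each). The ratio of cochlea replicate 3 to the other cochlear libraries was 2.03 (1.88 to 2.19), far under that of Acta1. Within each tissue Mybpc1 ranked the libraries as the long-gene medians given above did, with cochlea replicate 3 and vestibule replicate 1 at the top. The share of counts in the line for reads that overlap no annotated gene was 4.30%, 4.73% and 7.45% in the cochlear libraries against 6.85%, 6.998% and 5.77% in the vestibule. The part of these library differences in its values was not tested, and the predicted gene Gm48752 overlaps its exons on the opposite strand.

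**Figure D2:**
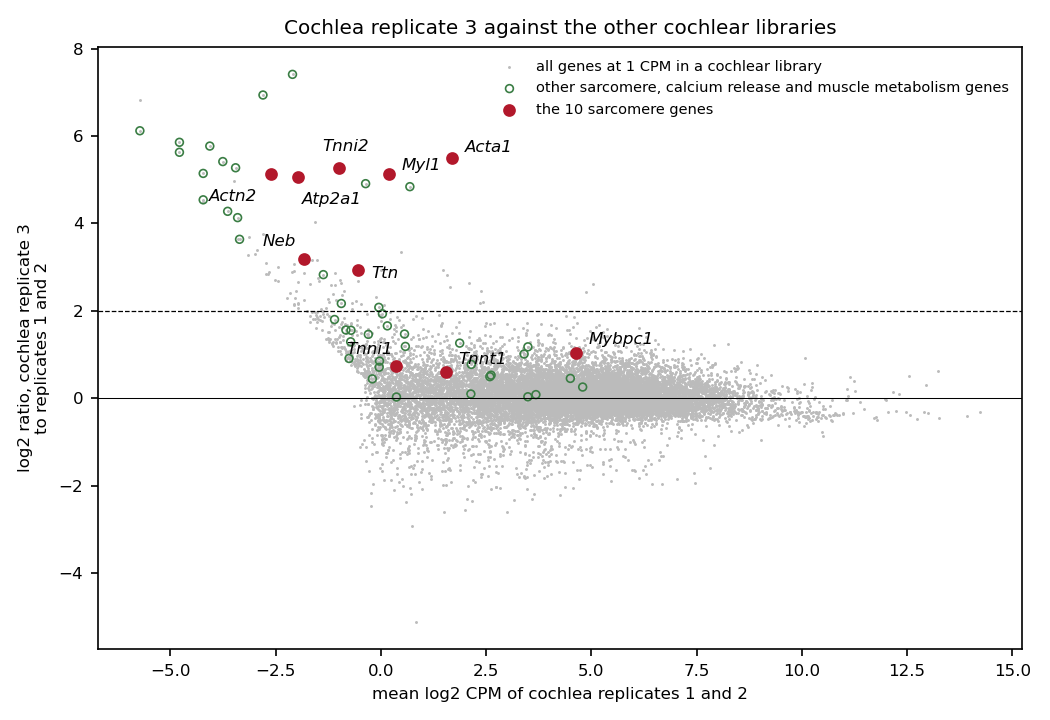
Log2 ratio of cochlea replicate 3 to cochlea replicates 1 and 2 (vertical axis, 0.5 counts added) against the mean log2 CPM of replicates 1 and 2 (horizontal axis) for the 14611 genes at 1 CPM or more in a cochlear library. The 10 genes are red, other sarcomere, calcium release and muscle metabolism genes green circles, and the dashed line is 4-fold; 7 red points lie above it, and Mybpc1, Tnni1 and Tnnt1 lie between it and 0.

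Among the 14611 genes at 1 CPM or more in at least 1 cochlear library, 97 stood at least 4-fold higher in cochlea replicate 3 than in the mean of the others on the log2 scale with 0.5 counts added, or 0.664%. Of the 10 genes 7 did, a count that the choice of genes set in part and from which nothing is read. By this ratio Acta1 ranked 8, Tnni2 11, Myl1 13, Actn2 14 and Atp2a1 15 of 14611, followed by Neb at 32 and Ttn at 38. Mybpc1 ranked 497, Tnni1 1160 and Tnnt1 1687. Actn2, Tnni2, Neb, Ttn and Atp2a1 entered these 14611 through cochlea replicate 3 alone, being under 1 CPM in the other cochlear libraries, so their height there was a condition of entry, as it was for other rare genes. The median log2 ratio was 4.13 over the 10 genes and 0.04 over all 14611.

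Set against Acta1, the counts of Myl1 ran from 27.4 to 40.0 per 100 and those of Tnni2 from 11.3 to 24.4 per 100. All 3 genes were chosen in part for the same peak in cochlea replicate 3, so a like proportion there follows in part from that choice. Per 100 Acta1 counts there were 40.0, 33.1 and 27.4 Myl1 counts in cochlea replicates 1 to 3 and 27.8, 28.2 and 31.5 in vestibule replicates 1 to 3. As a share of the pair, Myl1 made 28.6% in cochlea replicate 1 (exact interval 17.9 to 41.3) and 21.5% in replicate 3 (20.4 to 22.6), so the intervals overlapped. Tnni2 had 24.4, 11.3 and 13.2 counts per 100 Acta1 counts in the cochlear libraries against 23.3, 17.1 and 19.1 in the vestibule. Atp2a1 had 6.67, 7.52 and 5.76 in the cochlea, but 48.9, 9.76 and 19.1 in the vestibule, where its share of the pair in replicate 1 was 32.8% (25.0 to 41.5) against 5.45% (4.81 to 6.15) in cochlea replicate 3. These intervals cover counting error only and say nothing of the spread between libraries. Actn2 was likewise at 4.44, 4.51 and 3.88 per 100 in the cochlear libraries and at 23.3, 3.48 and 0 in the vestibule.

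Ttn, Tnnt1 and Mybpc1 did not keep a proportion to Acta1, and neither did some fast or perinatal genes of the other lists. Per 100 Acta1 counts, Mylpf ran from 31.4 in cochlea replicate 3 to 86.5 in vestibule replicate 3. Tnnt3 ran from 14.3 in cochlea replicate 2 to 46.7 in cochlea replicate 1, and Myh8 from 4.44 in cochlea replicate 1 to 103 in vestibule replicate 1. Ttn had 46.7, 10.5 and 3.60 counts per 100 Acta1 counts in the cochlear libraries against 76.7, 11.8 and 6.74 in the vestibule. Tnnt1 had 149, 66.2 and 2.97 in the cochlear libraries against 73.3, 22.6 and 75.3 in the vestibule. Mybpc1 had 1058, 659 and 35.0 in the cochlear libraries against 6028, 954 and 1817 in the vestibule, so it outnumbered Acta1 in every library other than cochlea replicate 3. Since Acta1 was chosen in part for its height in cochlea replicate 3, the low values there follow from that choice for any gene with a smaller peak.

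**Figure D3:**
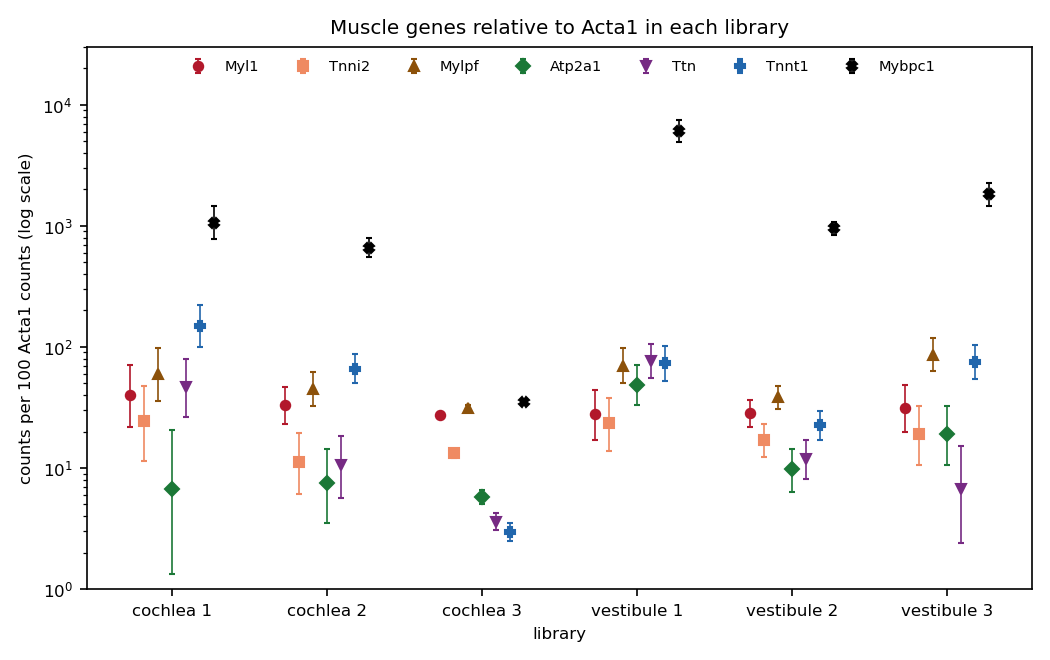
Counts per 100 Acta1 counts (vertical log axis) for 6 of the genes and the fast-fibre light chain Mylpf in the 6 libraries, with 95% exact binomial intervals from the split of each pair's counts. Myl1 stays between 27.4 and 40.0 in every library, while Mybpc1 runs from 35.0 in cochlea replicate 3 to 6028 in vestibule replicate 1.

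Levels per length could be compared for the 7 genes in the authors' RPKM matrix, which leaves out Actn2, Tnni1 and Tnni2. In cochlea replicate 3 Acta1 stood at 103 RPKM, Myl1 at 22.8, Mybpc1 at 11.4, Atp2a1 at 2.44, Tnnt1 at 1.99, Neb at 0.0978 and Ttn at 0.0456 RPKM. In cochlea replicates 1 and 2 Mybpc1 led at 4.31 and 6.73 RPKM, with Acta1 at 1.29 and 3.23 RPKM and Tnnt1 at 1.25 and 1.39 RPKM. Mybpc1 thus stood above Acta1 in cochlea replicates 1 and 2 and below it in replicate 3, while it stayed above Atp2a1 in all 3. Mybpc1 was also first in the vestibule, at 35.7, 23.6 and 14.05 RPKM, and Acta1 followed at 1.88, 7.82 and 2.45 RPKM. The lengths that the matrix implies ran from 1.43 kb for Acta1 to 26.02 kb for Neb and 116 kb for Ttn.

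The wider set of skeletal muscle genes was described from textbook lists. Of 39 other sarcomere genes, 30 reached 1 CPM in a cochlear library. At least 4-fold above the other cochlear libraries there were 14 (0.664% of all 14611 genes were), but 12 of these, Myh8 and Tnnt3 among them, were under 1 CPM in both other cochlear libraries and were counted through cochlea replicate 3 alone, so nothing is read from the count. Mylpf and Myoz1 were the other 2, of which Myoz1 was named after its values were seen. The summed level of all 39 genes was 61.3, 83.01 and 250 CPM in the cochlear libraries against 102, 122 and 89.8 CPM in the vestibule. Myh8, the perinatal myosin heavy chain, was the gene with the largest log2 ratio among those at 5 CPM or more in cochlea replicate 3, at 7.41, with 2, 10 and 1163 counts in the cochlear libraries against 93, 147 and 34 in the vestibule. Mylpf, the fast-fibre regulatory light chain, had 27, 60 and 1352 counts in the cochlear libraries against 63, 110 and 77 in the vestibule, and Tnnt3, the fast troponin T, had 21, 19 and 684 against 28, 83 and 31. Tpm2, a tropomyosin, and Xirp2, a protein of muscle attachment sites that is also known from hair cells, went another way. Tpm2 had 453, 771 and 906 counts in the cochlear libraries against 364, 349 and 298 in the vestibule, and Xirp2 had 295, 300 and 336 against 1226, 1123 and 964.

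Of 17 genes of calcium release and muscle metabolism 13 reached 1 CPM in a cochlear library. At least 4-fold higher in cochlea replicate 3 were 4 of them, Ckm included (0.664% of all 14611 genes were). All 4 reached 1 CPM through that library alone, so nothing is read from the count. Ckm, the muscle creatine kinase, had 1, 6 and 515 counts in the cochlear libraries against 7, 22 and 4 in the vestibule, a log2 ratio of 6.94. Jph1, a junction protein of the sarcoplasmic reticulum, had 610, 880 and 968 counts in the cochlear libraries against 223, 144 and 171 in the vestibule, with no such peak, and Pgam2, a glycolytic enzyme, had 289, 399 and 397 against 226, 184 and 155. A gene of the muscle lists was therefore not always a gene of the cochlea replicate 3 pattern.

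The myogenic regulators were unevenly detected. Of 10 myogenic regulator and fusion genes 3 reached 1 CPM in a library. Myf5 was at 0 in all 6 libraries, Myod1 at 0, 0 and 1 counts in the cochlear libraries against 0, 2 and 0 in the vestibule, Pax7 at 0 or 1 count in each, and Myog, the regulator of muscle differentiation, which like them was named after its values were seen, had 3, 7 and 12 counts against 4, 6 and 2. Mef2c, a regulator that other tissues also use, stood at 21.0, 17.2 and 17.7 CPM in the cochlear libraries against 36.2, 33.1 and 35.6 CPM in the vestibule, and Cdh15, a cadherin of muscle precursors, at 1.87 to 2.87 CPM in all 6. Pax3, a regulator of muscle and neural crest precursors, had 10, 8 and 7 counts against 49, 41 and 33. Of the acetylcholine receptor genes of the neuromuscular junction, Chrnd reached 1 CPM in no library, with 7 to 21 counts, and was named after its values were seen, while Chrnb1 had 473, 715 and 622 counts in the cochlear libraries against 2291, 1520 and 1377 in the vestibule, and the median log2 ratio of cochlea replicate 3 over that list was 0.13. Of 8 cardiac muscle genes 4 reached 1 CPM in a cochlear library, 2 of these 4 through cochlea replicate 3 alone. Among them Actc1, the cardiac alpha-actin that the perinatal skeletal muscle also uses, had 3, 15 and 163 counts in the cochlear libraries against 27, 34 and 30 in the vestibule. Tnnc2, the fast troponin C, named after its values were seen, was at 0 counts in every library, and exons of Ube2c overlap it on the opposite strand.

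The lists of other tissues were summed in the same way. The summed CPM in cochlea replicate 3 was, as a ratio to the mean of the other cochlear libraries, 4.42 for cardiac muscle, 1.97 for fat, 1.43 for cartilage, 1.33 for smooth muscle, 1.17 for hair cell, 0.932 for tendon, 0.931 for macrophage, 0.844 for bone, 0.757 for epidermis, 0.597 for Schwann cell, 0.543 for red blood cell and 0.327 for neuron genes. Of the 401 cardiac counts in cochlea replicate 3, Actc1 held 163. The ratio of summed CPM was 8.15 for the 10 sarcomere genes, a log2 ratio of 3.03. It was 22.8 without Mybpc1, and the log2 ratio was 2.13 without Acta1. The choice of these genes set these values in part, so the lists are not compared with them. Summed over 4 tendon genes (Tnmd, Scx, Mkx and Thbs4) the level was 43.1, 30.4 and 34.3 CPM in the cochlear libraries against 50.1, 48.7 and 47.1 CPM in the vestibule. Over 7 red blood cell genes it was 738, 342 and 293 CPM against 529, 640 and 477 CPM, and over 6 fat genes 0.695, 0.521 and 1.20 CPM against 1.04, 1.6 and 0.785 CPM, with 1 of the 6 at 1 CPM in any library. Smooth muscle genes had a median log2 ratio of 0.26 over cochlea replicates 1 and 2, and the non-muscle relatives of the sarcomere genes 0.02. Of the actins that could share reads with Acta1, Acta2 stood at 1.14, 1.28 and 2.33 CPM in the cochlear libraries against 4.07, 7.55 and 4.83 CPM in the vestibule, and Actb at 1085, 1131 and 1152 CPM against 1225, 1482 and 1497 CPM. Atp2a2, the pump that most cells use in place of Atp2a1, had a log2 ratio of -0.08. Neuron and Schwann cell genes were lower in cochlea replicate 3, with median log2 ratios of -1.84 and -0.75. The source of the muscle gene counts was not tested.

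**Figure D4:**
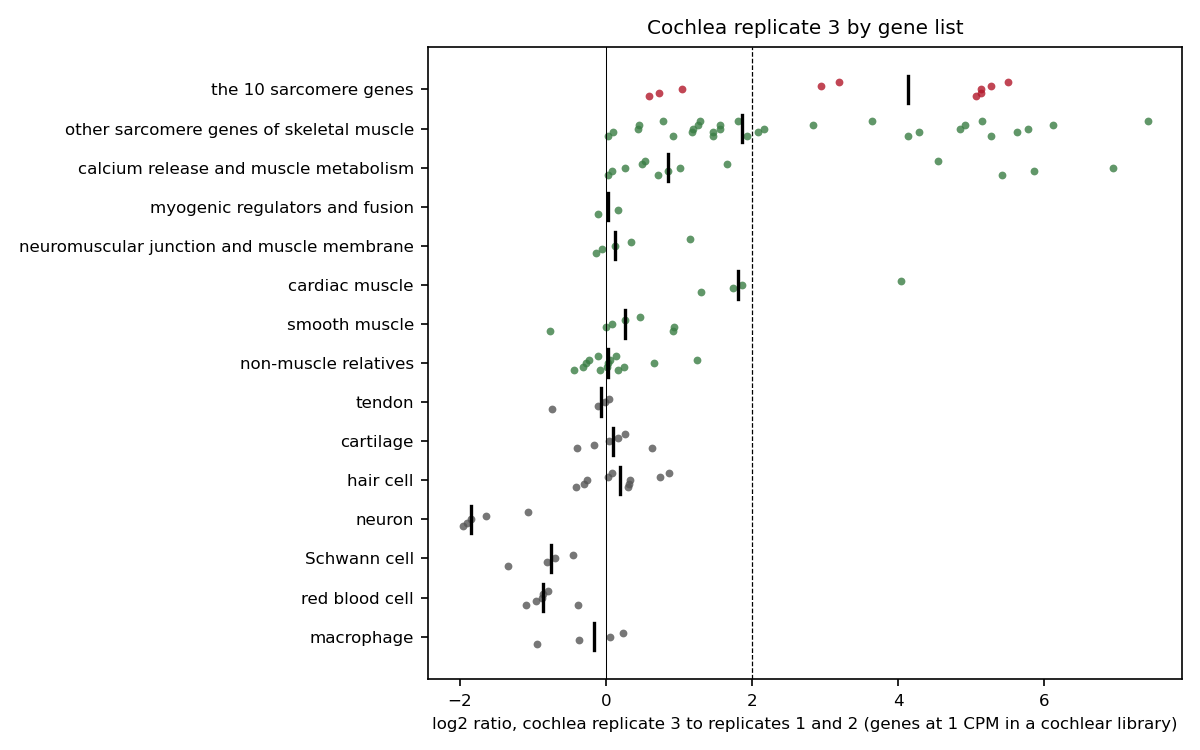
Log2 ratio of cochlea replicate 3 to cochlea replicates 1 and 2 (horizontal axis) for each gene of 15 lists (rows, points) at 1 CPM or more in a cochlear library, with the list's median as a vertical bar and 4-fold as the dashed line. The 10 sarcomere genes, chosen in part for this ratio, have their median at 4.13, and the neuron list lies at -1.84.

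The genes with the most similar profiles were found by the root mean square difference of centred log2 CPM over the 6 libraries from the mean profile of the 10. That mean takes in Tnni1, Tnnt1 and Mybpc1, whose ratios in cochlea replicate 3 were far lower, so a near gene need not follow the genes with the largest peaks. The nearest with a symbol were Myl2, the slow regulatory light chain, at 0.55, Mid1-ps1 at 0.57, Gm8425 at 0.59, 8030451A03Rik at 0.60, Casq2, a calcium store protein of the sarcoplasmic reticulum, at 0.64, Gm26561 at 0.65, Mylpf at 0.66, Tnnc1, the slow troponin C, at 0.66, and Gm12786 and 1700109K24Rik at 0.68. The other 2 of the 12 nearest carried no symbol. The list rests on this measure, since the 12 nearest by Pearson correlation shared 1 gene with it. Of the named ones 4 are muscle genes, and apart from Mylpf none had more than 96 counts in a library. Genes other than those of muscle also stood high in cochlea replicate 3. Of the 20 genes with the largest ratios at 5 CPM or more there, 11 were on the muscle lists, and the other 9 were Gm21781, Firre, AI480526, Gm14391, Dnm3os, Miat, Xist, Spaca6 and Meg3, with log2 ratios of 2.46 to 3.34. Miat, a long noncoding RNA, had 90, 140 and 780 counts in the cochlear libraries against 2111, 1153 and 445 in the vestibule, so its highest library was a vestibular one.

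The comparison of vestibule with cochlea asked which genes mark either organ. The quasi-likelihood test of edgeR, adjusted by Benjamini-Hochberg, called 4036 of 14723 genes at an adjusted p of 0.05 (27.4%), 2325 higher in the vestibule (15.8%) and 1711 higher in the cochlea (11.6%). Of the 10 genes 7 passed the filter of 1 CPM in 3 libraries, and Actn2, Tnni1 and Tnni2 did not. One of the 7, Mybpc1, was called, with a log2 fold change of 1.57 (SE 0.38, adjusted p = 0.016), higher in the vestibule in 3 of 3 libraries. The call was lost with the replicate number as a block (adjusted p = 0.072), without cochlea replicate 2 (0.076) and without vestibule replicate 1 (0.0504), all in edgeR. Since the choice of the genes used this contrast in part, nothing is read from the count.

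Acta1 and Myl1 had the lowest log2 fold changes of the 7 and were not called. Acta1 averaged 51.3 ± 83.2 CPM in the cochlea and 5.78 ± 4.69 CPM in the vestibule (SD, n = 3 each), a log2 fold change of -3.25 (SE 1.40, edgeR adjusted p = 0.12). Myl1 averaged 14.2 ± 22.7 CPM and 1.67 ± 1.30 CPM, a log2 fold change of -3.21 (SE 1.33, adjusted p = 0.11). In both the cochlear SD exceeded the mean, and the difference lay within the spread of the libraries. Atp2a1 was at -1.65 (SE 1.14, adjusted p = 0.32), Ttn at -0.99 (SE 0.88, adjusted p = 0.44), Tnnt1 at -0.63 (SE 0.27, adjusted p = 0.11) and Neb at -0.17 (SE 0.77, adjusted p = 0.90) in the edgeR fit. None of these 4 genes was called.

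Without cochlea replicate 3 the fold changes of Acta1 and Myl1 changed sign, towards the vestibule. edgeR then called 4557 of 14504 genes (31.4%), and only Acta1, Myl1, Tnnt1 and Mybpc1 of the 10 passed the filter. Acta1 was at a log2 fold change of 0.67 (SE 0.64, edgeR adjusted p = 0.46) and Myl1 at 0.37 (SE 0.62, adjusted p = 0.68), neither called. Tnnt1 was at -0.43 (SE 0.26, adjusted p = 0.24). Mybpc1 was called at 1.98 (SE 0.37, adjusted p = 0.0044), so it was higher in the vestibule with and without that library. Among the 16 other sarcomere genes tested with all libraries 3 were called on the cochlear side and 3 on the vestibular side (11.6% and 15.8% of all genes), with a median log2 fold change of 0.30 against 0.00 over all genes. Without cochlea replicate 3, 13 were tested, and 2 were called on the cochlear side and 7 on the vestibular side (12.8% and 18.6% of all genes). With 2 cochlear libraries left, a gene could pass the filter of 1 CPM in 3 libraries through the vestibule alone but not through the cochlea alone, so the filter set these counts in part and nothing is read from the change. Myh8, which passed through the vestibule alone once the library of its peak was left out, is an example, with 0.0818 and 0.347 CPM in the cochlear libraries left and 2.76, 5.72 and 1.33 CPM in the vestibule.

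**Figure D5:**
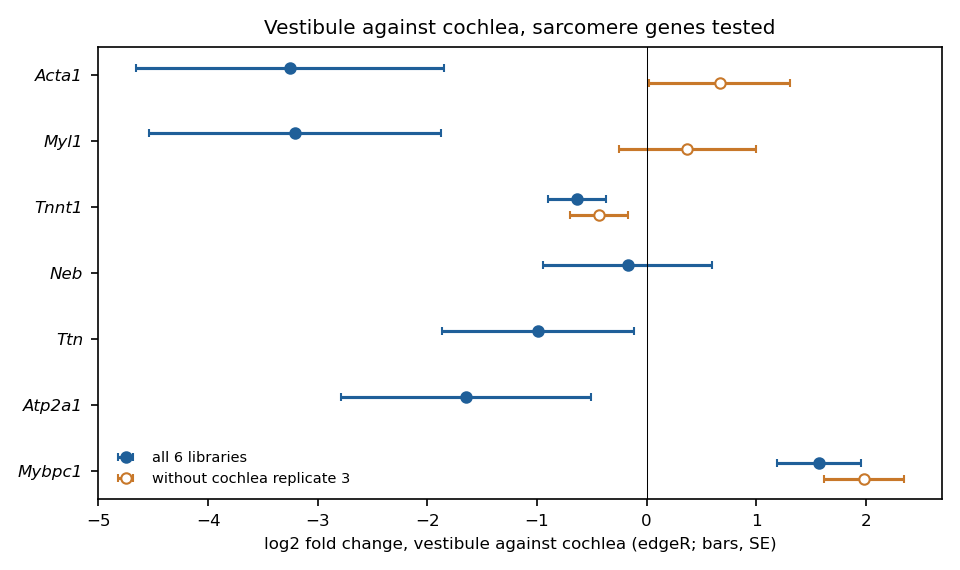
Log2 fold change of vestibule against cochlea from edgeR (horizontal axis, bars for the SE) for the 7 genes tested, with all 6 libraries (filled) and without cochlea replicate 3 (open; Neb, Ttn and Atp2a1 then fell under the filter). Acta1 lies at -3.25 with all libraries and at 0.67 without cochlea replicate 3, while Mybpc1 lies at 1.57 and 1.98.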

How the data were processed

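Sensory epithelia were profiled in 6 RNA-seq libraries, 3 of each tissue. The authors aligned reads with TopHat2 2.1.0 to GRCm38 and counted them per Ensembl gene with HTSeq 0.5.4p5, and these deposited counts are not normalized. Reads aligned to more than 1 place are not in the gene counts, so genes with near copies such as the actins can be undercounted. The deposited matrix of log2 RPKM, made by the authors with edgeR 3.4.2, was used only for levels per length. Summary lines, which name no gene, held 18.5% to 20.6% of each table and were left out of library sizes.

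CPM were computed from all gene rows. Tests were run with edgeR 4.0.16 (TMM, quasi-likelihood, adjusted p 0.05, 1 CPM in 3 libraries) in R 4.3.3. DESeq2 1.42.0 and limma-voom (limma 3.58.1) were alternatives. Ratios added 0.5 counts on the log2 scale, and pooled ratios have exact binomial intervals at 95% from scipy 1.17.1. The fit was tested on simulated data. Gene positions are from a GRCm38 annotation of another release than the authors'. Named were the 10 genes, up to 4 genes per list by CPM, paralogs that could share reads, the 12 nearest profiles and the 20 largest ratios at 5 CPM or more in cochlea replicate 3, and other names are said to be added. The genes and lists were chosen with earlier results of these data known. The 50 alternatives were planned and 2 added after seeing the data.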

Additional observations from a re-analysis of the deposited data

How the results depend on the processing

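All 6 libraries entered every fit other than those that leave 1 out. The number of genes called was 4036, between 4003 and 4791 under other scalings, filters and tools, 2618 with the replicate block and 2267 to 4557 with 1 library left out, lowest without vestibule replicate 2. Without TMM scaling 1249 genes were higher in the cochlea and 2754 in the vestibule, and the median of all genes moved by 0.13 on the log2 scale. Replicate numbers are not said to pair the tissues, and same-numbered libraries correlated at -0.18, -0.26 and -0.48 in their deviations, so the block shares only a number. With the replicate block 0 members were called (Mybpc1 adjusted p = 0.072) and Neb reversed to 0.45. One member was called in the report, 2 with a filter of 1 CPM in 1 library, 5 with no filter, and 0 to 2 with 1 library left out, while limma-voom called 1 and DESeq2 1 of the 4 to which it gave an adjusted p. Where edgeR called 0, the members at an unadjusted p under 0.05 were 2 of 7 with the block, 3 of 7 without cochlea replicate 2 and 1 of 4 without vestibule replicate 1, against 4 of 7 in the report.

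Mybpc1 was not called, with edgeR adjusted p of 0.076 without cochlea replicate 2 and 0.0504 without vestibule replicate 1, and Myl1 was called without cochlea replicate 1 (-3.77, adjusted p = 0.049). With 1 library left out Acta1 ran from -4.12 to 0.67 and Myl1 from -4.02 to 0.37, both highest and of the other sign without cochlea replicate 3, and Neb from -0.63 to 0.077, of the other sign without vestibule replicate 3. With the replicate block Acta1 was at -0.94 and Myl1 at -1.39, with limma-voom at -1.44 and -1.62, and with no filter both were called (adjusted p = 0.026 and 0.022). The 12 nearest profiles shared 10 genes with 2 counts added and 1 by Pearson correlation. limma-voom reversed Neb to 0.58 and Atp2a1 to 0.22. DESeq2 gave no adjusted p to 6 genes, Acta1, Atp2a1, Myl1, Myh8, Mylpf and Tnnt3, as it does where a count is extreme. The log2 ratio of summed member CPM in cochlea replicate 3 was 3.03. It was 4.13 as the median over members, 3.83 with 2 counts added, 4.51 without Mybpc1 as the member with most counts and 3.85 on RPKM. Of 2 alternatives added after seeing the data it was 2.13 without Acta1 and 5.40 over Acta1, Actn2, Myl1, Tnni2 and Atp2a1. The cause of these changes was not tested.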

Other observations

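Genes of the neuromuscular junction and of smooth muscle were also called between the tissues, as were genes of lists outside muscle. In those lists 4 of 4 macrophage, 3 of 4 Schwann cell and 5 of 10 hair cell genes were higher in the vestibule. On the cochlear side were 2 of 5 neuron genes and 1 hair cell gene, and 0 of 6 red blood cell genes were called. Of 5 tested genes of the junction and muscle membrane (15.8% of all genes tested were higher in the vestibule and 11.6% in the cochlea), 3 were higher in the vestibule in the edgeR fit, Chrnb1 by 1.34 (SE 0.15, adjusted p = 0.00028), Chrna1 by 1.14 (SE 0.20, adjusted p = 0.0027) and Chrng by 0.92 (SE 0.24, adjusted p = 0.022) on the log2 scale. These encode subunits of the muscle acetylcholine receptor. Des, the muscle intermediate filament desmin, was higher in the cochlea (-1.49, SE 0.33, edgeR adjusted p = 0.0096), with 256, 382 and 773 counts there and 198, 194 and 150 in vestibular libraries. All 4 kept their call without cochlea replicate 3. Of 8 tested smooth muscle genes 4 were higher in the vestibule and 1 in the cochlea, beside the same shares of all genes, among them Smtn at 0.70 (SE 0.16, edgeR adjusted p = 0.013) and Synpo2 at -0.70 (SE 0.19, adjusted p = 0.027), and Synpo2 was not called without cochlea replicate 3 (adjusted p = 0.061).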
